A study of Macaca fascicularis with 6 samples.

Results

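MARCO, MSR1, MRC1, CD163, STAB1, FOLR2, CD36, TREM2 and GPNMB are macrophage surface receptors for scavenging, endocytosis and lipid sensing. They were taken by their gene symbols, and each symbol stood on 1 row of the count tables, so that 9 of 28623 genes are described here. In the macFas6 annotation they carry the identifiers ENSMFAG00000037627 (MARCO), ENSMFAG00000031529 (MSR1), ENSMFAG00000036299 (MRC1), ENSMFAG00000030782 (CD163), ENSMFAG00000045138 (STAB1), ENSMFAG00000002506 (FOLR2), ENSMFAG00000044200 (CD36), ENSMFAG00000031820 (TREM2) and ENSMFAG00000037301 (GPNMB). The lungs came from male cynomolgus monkeys (Macaca fascicularis) of 3 to 5 years, and every monkey gave 1 single-cell RNA-seq library of lung tissue taken in week 11. The 3 monkeys of the asthma group (replicates 8, 10 and 11) had been sensitised under the skin with antigen of the roundworm Ascaris suum at 1 mg/mL in adjuvant and then challenged through the nose with 10 mg/mL of the same antigen, and the 3 monkeys of the control group (replicates 1, 2 and 3) had received saline by the same steps. The protocol set sensitisation with adjuvant together with challenge against saline alone, so the effects of antigen, adjuvant and challenge cannot be told apart.

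Scavenger receptors bind modified lipoproteins, microbial surfaces, particles and spent plasma proteins and carry them into the cell. MARCO and MSR1 are class A scavenger receptors of tissue macrophages, and MARCO is best known on the macrophages that keep the air spaces clear of inhaled particles. MRC1 is the mannose receptor, CD163 takes up complexes of haemoglobin with haptoglobin, STAB1 clears modified proteins in sinusoidal endothelium and perivascular macrophages, and FOLR2 binds folate. CD36 takes up oxidised lipoproteins and long-chain fatty acids, TREM2 signals from lipids and apoptotic debris through the adaptor TYROBP, and GPNMB is a membrane glycoprotein of lysosome-rich, lipid-laden phagocytes. In lung, alveolar macrophages line the air spaces and recycle surfactant, and interstitial macrophages lie in the tissue around vessels, airways and nerves.

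The 6 libraries held 35133 barcodes, of which 24235 passed the limits of over 500 and under 5000 genes, at least 500 unique molecular identifiers (UMIs, each of which stands for 1 captured RNA molecule) and at most 25% mitochondrial UMIs. The control libraries (replicates 1, 2 and 3, in that order here and below) summed to 40556102, 33210436 and 32240293 UMIs, and the asthma libraries (8, 10 and 11) to 41184329, 41489879 and 29014556. Any pair of libraries shared between 1 and 11 barcodes over the 15 pairs, and no library duplicated another. The 696 barcodes with 5000 genes or more, left out here, held 23.9% of all UMIs of the 9 receptors. Cells were clustered without the 9 receptors, and clusters were named from other marker genes, so that neither the clusters nor their names drew on the receptors. The macrophage-like class held 3444 cells in 13 sub-clusters, with 987, 297 and 366 cells in the control libraries and 548, 850 and 396 in the asthma libraries. Of these, 2275 cells were alveolar-like, led by genes such as FABP4, CCL18 and MCEMP1, 649 were interstitial-like, 88 were of an FN1-expressing type and 432 had no subtype name. Macrophage-like cells were deep, with a median of 18432 UMIs a cell against 3651 in T and NK-like cells. Levels are given in CPM, the receptor's UMIs per 1000000 UMIs of a class in 1 library, as mean ± SD over libraries, and they are compared within a gene, not between genes.

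In macrophage-like cells 7 of the 9 receptors had their highest level of all 12 classes, by a margin wider than the spread between libraries. STAB1 and CD36 did not stand apart in this way. MARCO measured 535 ± 193 CPM there (SD, n = 6), and no other class averaged above 6.71 CPM, the mean of monocyte-like cells. MRC1 stood at 1526 ± 311 CPM against 21.5 ± 14.5 in endothelial-like cells, the class next in order. MSR1 reached 74.3 ± 7.17 CPM, with monocyte-like cells at 7.86 ± 6.17 and every class after them at or below 0.560. FOLR2 measured 134 ± 58.3 CPM and TREM2 78.8 ± 46.0 CPM, and the classes next in order averaged 4.42 and 3.48 CPM. For MARCO, MRC1, FOLR2 and TREM2 the classes below macrophage-like cells did not differ from their neighbours in order beyond their spread.

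CD163 and GPNMB each had a second place of expression. CD163 was at 502 ± 154 CPM in macrophage-like cells and at 264 ± 72.2 CPM in monocyte-like cells, and the following class, granulocyte-like cells, averaged 13.2 CPM. Within the monocyte-like cells the level lay in the classical type, at 400 ± 73.8 CPM, and was 47.5 ± 33.7 CPM in the nonclassical type. In the 3 control libraries the classical monocyte-like cells had 423, 327 and 432 CPM of CD163, and in the 3 asthma libraries 290.3, 455 and 473. GPNMB was at 1123 ± 319 CPM in macrophage-like cells and 345 ± 221 CPM in fibroblast and mural-like cells, with 24.1 ± 11.9 CPM in granulocyte-like cells next. After thinning each cell to 2000 UMIs, 33.2% of fibroblast and mural-like cells held a GPNMB UMI against 1.42% of T and NK-like cells, a type that should lack the gene.

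STAB1 and CD36 were shared with vessel and lining cells. STAB1 averaged 71.5 ± 33.2 CPM in endothelial-like cells, 44.9 ± 5.12 CPM in mast-like cells (2 libraries, with 25 UMIs in all), 40.4 ± 27.0 CPM in macrophage-like cells and 11.4 ± 6.48 CPM in monocyte-like cells. The ranges of mean ± SD overlapped between neighbours in this order. CD36 averaged 46.0 ± 15.7 CPM in macrophage-like, 43.1 ± 32.9 in endothelial-like and 37.7 ± 30.2 in epithelial-like cells, which did not differ beyond their spread, and 4.86 ± 5.53 in monocyte-like cells. Endothelial-like CD36 was uneven between libraries, at 49.4, 8.85 and 4.21 CPM in the control group and 57.7, 45.5 and 92.8 CPM in the asthma group.

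**Figure D1:**
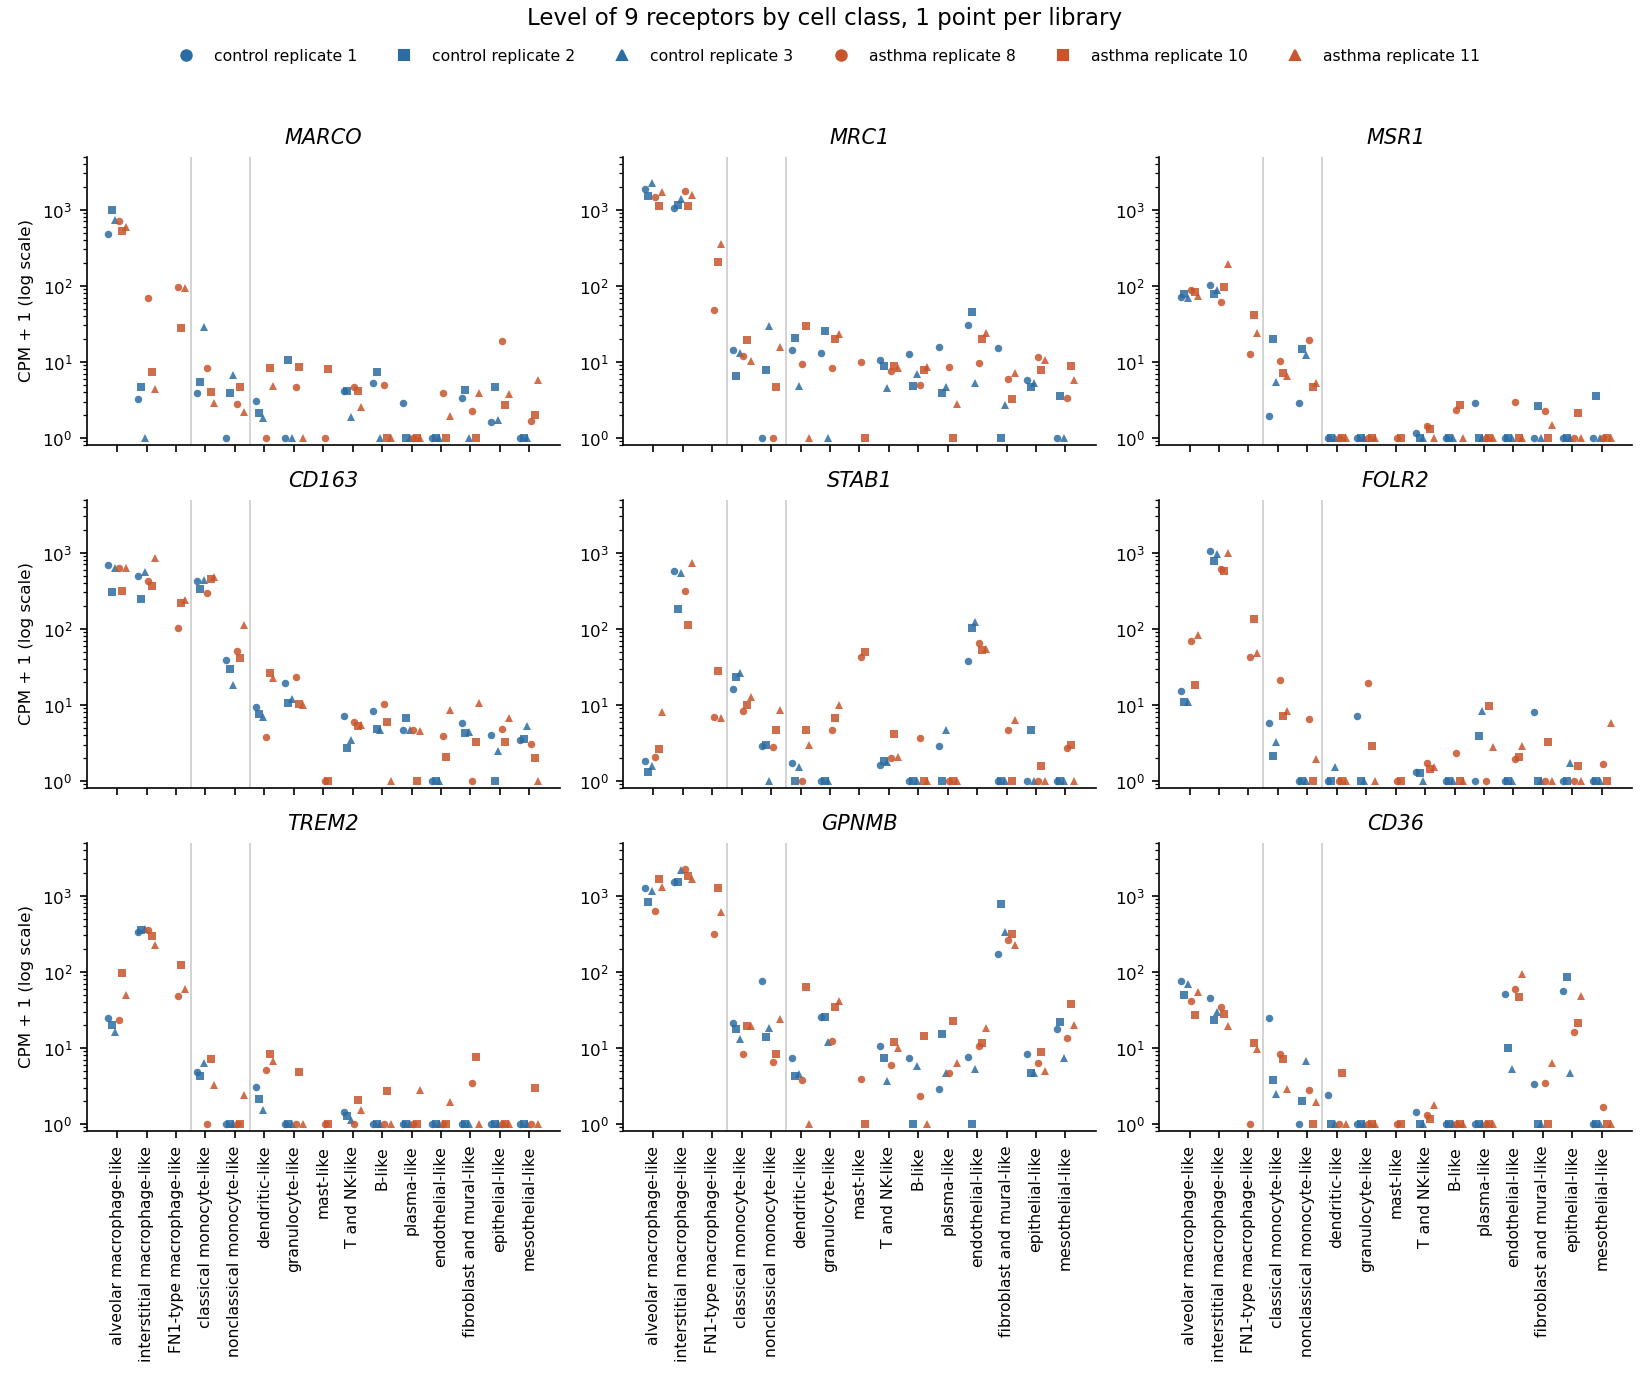
Level of each receptor (CPM + 1, log axis) in each cell class, 1 point per library, with control libraries in blue and asthma libraries in orange, and with macrophage and monocyte subtypes set apart by grey lines. MRC1, FOLR2 and TREM2 stand in the macrophage subtypes and MARCO in the alveolar-like and FN1-expressing ones, with the other classes far lower. FOLR2 and TREM2 are highest in interstitial-like macrophages (826 and 322 CPM on average, against 33.6 and 37.2 CPM in alveolar-like ones). CD163 is also high in classical monocyte-like cells at 400 CPM on average, and GPNMB in fibroblast and mural-like cells at 345 CPM. STAB1 is highest in interstitial-like macrophages (409 CPM on average) and low in alveolar-like ones (1.89 CPM), with 71.5 CPM in endothelial-like cells. CD36 spreads over several classes.

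The alveolar-like and interstitial-like macrophages held different levels of the receptors. MARCO was higher in alveolar-like cells, and STAB1, FOLR2 and TREM2 were higher in interstitial-like cells, in each of the 6 libraries. These contrasts are given without a test, since the subtypes are clusters of the same cells. The interstitial name was weak for sub-cluster 1, which held 488 of the 649 interstitial-like cells. Its marker scores were 1.30 on the alveolar list (6 markers detected) and 1.29 on the interstitial list (3 markers). The names were split at the midpoint of the range of the alveolar minus the interstitial score over macrophage-like sub-clusters. Sub-cluster 1 fell on the interstitial side of that midpoint, although its alveolar score was slightly the higher. The other interstitial-like sub-clusters, 5 and 7, scored 2.81 and 1.74 on the interstitial list, above their scores on the alveolar list. MARCO stood at 472, 999.5 and 722 CPM in alveolar-like cells of the control libraries and at 718, 527 and 582 CPM in those of the asthma libraries. In interstitial-like cells the values were 2.24, 3.71 and 0 CPM and 67.7, 6.40 and 3.32 CPM, so that every library was lower there. The ratio of the mean levels was 48.2, and it was 211 without asthma replicate 8, whose interstitial-like value of 67.7 CPM stood apart. A MARCO UMI was held by 77.3% of alveolar-like cells. At 2000 UMIs a cell, 49.1% of alveolar-like and 0.644% of interstitial-like cells had 1, the latter close to the 0.610% of T and NK-like cells.

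STAB1 showed the widest contrast in the other direction. In interstitial-like cells it measured 572, 179.7 and 542 CPM in the control libraries and 309, 112 and 741 CPM in the asthma libraries. In alveolar-like cells it lay between 0.322 and 7.01 CPM, from 73 UMIs in all, and the ratio of the means was 216, or 395 without asthma replicate 11. FOLR2 measured 1060.45, 767 and 955 CPM in interstitial-like cells of the control group and 616, 575 and 981 CPM in those of the asthma group, a mean of 826 ± 203 CPM against 33.6 ± 32.5 CPM in alveolar-like cells. TREM2 averaged 322 ± 53.1 CPM in interstitial-like and 37.2 ± 30.8 CPM in alveolar-like cells, 8.67 times lower. The FOLR2 ratio was 24.6. At 2000 UMIs a cell, 65.1% of interstitial-like cells held a FOLR2 UMI, 43.6% a TREM2 UMI and 30.1% a STAB1 UMI, against 5.53%, 7.34% and 0.398% of alveolar-like cells.

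The other 5 receptors were present in both subtypes at levels within a factor of 1.77 of each other. MRC1 averaged 1651 ± 374 CPM in alveolar-like and 1338 ± 276 CPM in interstitial-like cells and was higher in the former in 5 of 6 libraries. CD163 averaged 527 ± 171 and 487 ± 208 CPM, with 4 of 6 libraries higher in alveolar-like cells. CD36 averaged 51.3 ± 17.3 and 29.0 ± 9.33 CPM (5 of 6). GPNMB was higher in interstitial-like cells in all 6 libraries, at 1824 ± 329 against 1129.8 ± 362 CPM, and MSR1 in 4 of 6, at 101 ± 45.6 against 76.3 ± 6.71 CPM. The FN1-expressing type, with at least 10 cells only in the 3 asthma libraries, held less MRC1 (201 ± 152 CPM) and CD163 (185 ± 74.0 CPM) than either subtype did on average, and its MARCO stood at 71.1 ± 38.5 CPM.

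With sub-cluster 1 left out, a choice made after seeing the data, at least 10 interstitial-like cells remained in 4 libraries (control replicates 1 and 3, asthma replicates 10 and 11). Control replicate 2 and asthma replicate 8 were thereby lost, so the means below differ from those above in both sub-clusters and libraries. MARCO then averaged 2.30 ± 3.02 CPM (n = 4) and was lower than in alveolar-like cells in 4 of 4 libraries. STAB1 averaged 1409 ± 456 CPM and FOLR2 1492 ± 164 CPM, both higher than in alveolar-like cells in 4 of 4. TREM2 averaged 173 ± 59.6 CPM and was higher in 3 of 4, with 94.7 CPM against 95.2 CPM in asthma replicate 10. GPNMB turned round, at 624 ± 256 CPM against 1335 CPM in alveolar-like cells of the same 4 libraries. It was lower in each of these 4, where it had been higher with sub-cluster 1 kept. CD163 turned round as well, at 929 ± 213 against 558 CPM, higher in interstitial-like cells in 3 of 4. The gap widened for CD36, at 14.7 ± 6.26 against 54.8 CPM and lower in interstitial-like cells in 4 of 4, and for MSR1, at 173 ± 101 against 73.7 CPM and higher in 3 of 4. MRC1 averaged 1527 ± 380 against 1729 CPM.

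**Figure D2:**
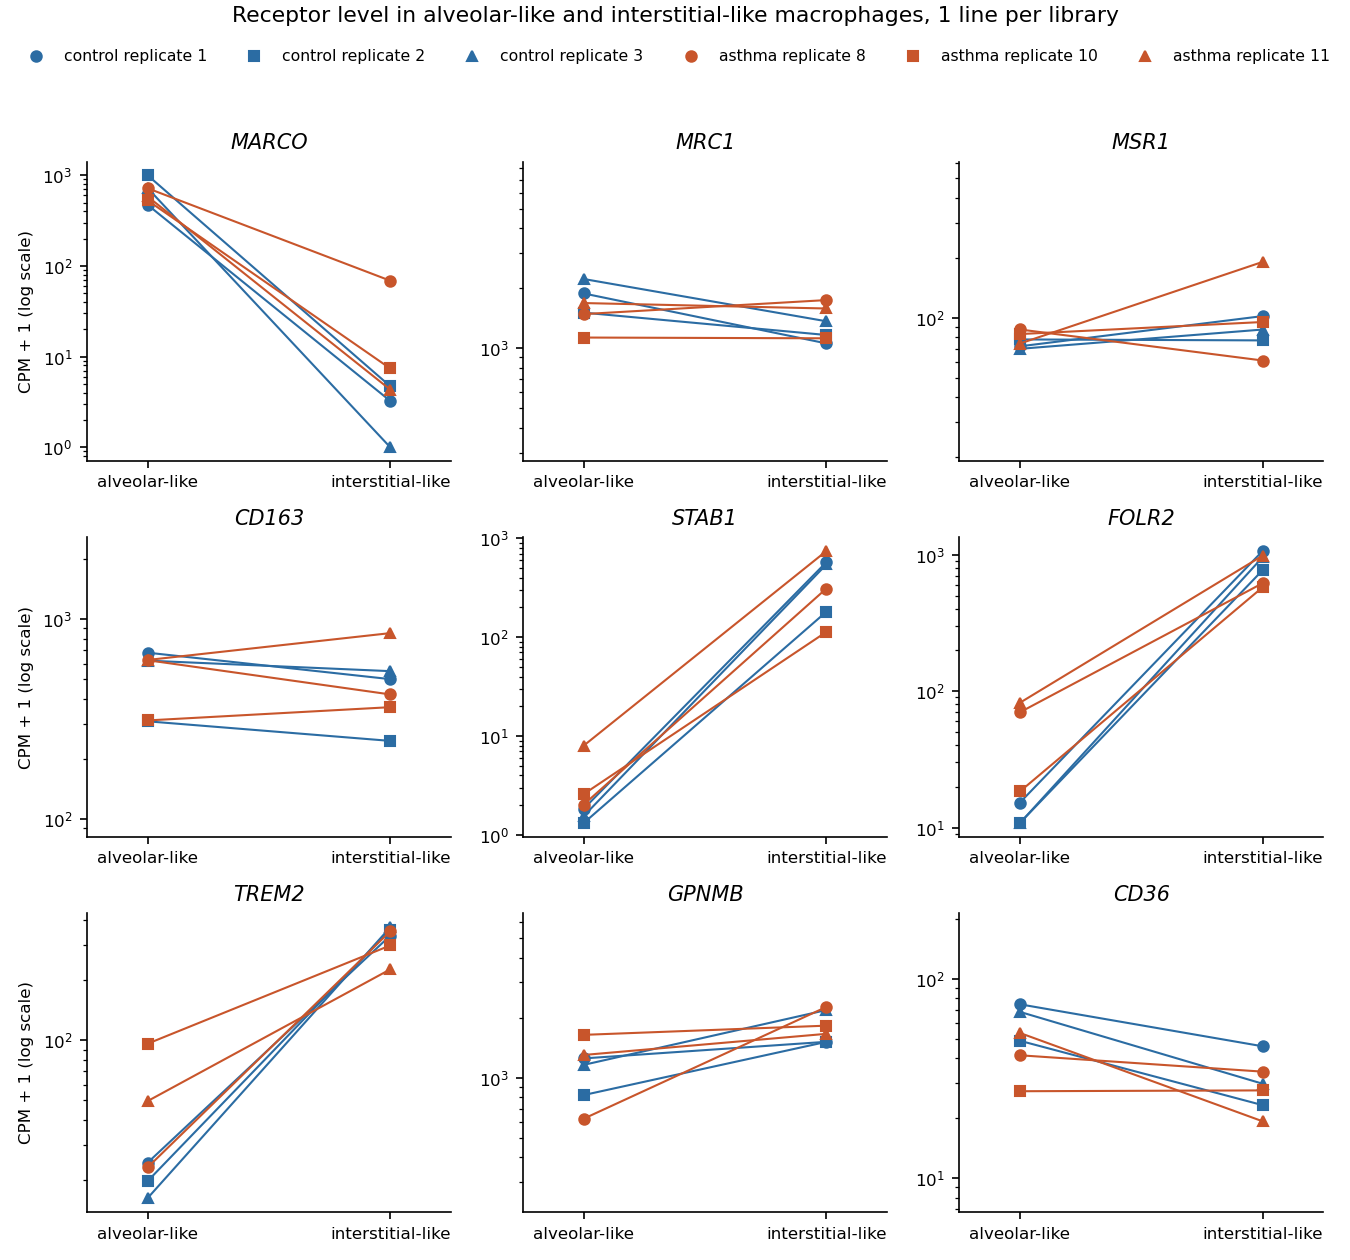
Receptor level (CPM + 1, log axis) in alveolar-like and interstitial-like macrophages, with the 2 values of each library joined by a line. The lines for MARCO slope down from alveolar-like to interstitial-like cells in all 6 libraries (ratio of means 48.2, and 211 without asthma replicate 8, the highest in interstitial-like cells), and those for STAB1, FOLR2, TREM2 and GPNMB slope up in all 6, though GPNMB was lower in interstitial-like cells with sub-cluster 1 left out (624 CPM).

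The 13 sub-clusters of the macrophage-like class ordered the receptors further, though most alveolar-like sub-clusters came largely from 1 library. Control replicate 1 gave 100% of the 494 cells of sub-cluster 8 and 93.5% of sub-cluster 13, asthma replicate 8 gave 98.9% of sub-cluster 10, asthma replicate 11 gave 96.3% of sub-cluster 12 and asthma replicate 10 gave 96.8% of sub-cluster 4. Such a sub-cluster may be a library and not a type. MARCO ran from 2.29 CPM in sub-cluster 2, an unnamed group with the chemokine gene CCL17 at its head, to 1029 CPM in sub-cluster 13. CD36 and GPNMB also had their highest levels in sub-cluster 13, at 99.0 and 2107 CPM, while FOLR2 had its lowest there, at 1.33 CPM.

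Sub-cluster 5, of 89 interstitial-like cells, carried the highest STAB1 (1619 CPM), FOLR2 (1495 CPM), CD163 (1070.4 CPM) and MSR1 (208 CPM) of the 13. Only 1 of its cells came from control replicate 2 and 4 from asthma replicate 8. Sub-cluster 5 also held LYVE1, a marker of macrophages near vessels, at 245 CPM. LYVE1 is itself on the list used to name interstitial-like cells. Asthma replicate 11 gave 36.0% of it, the largest share of a library. TREM2 was highest in sub-cluster 1, the largest interstitial-like group with 488 cells, at 324 CPM, where STAB1 was 122 CPM and LYVE1 3.33 CPM. That sub-cluster drew 65.4% of its cells from asthma replicate 10. Asthma replicate 10, with 319 cells in sub-cluster 1 and 21 in sub-cluster 5, had the lowest interstitial-like STAB1 of the 6 libraries, at 112 CPM. MRC1 was lowest in sub-cluster 6, the FN1-expressing type with CXCL10 and SPP1 among its leading genes, at 263 CPM, and highest in sub-cluster 8, at 2225 CPM.

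**Figure D3:**
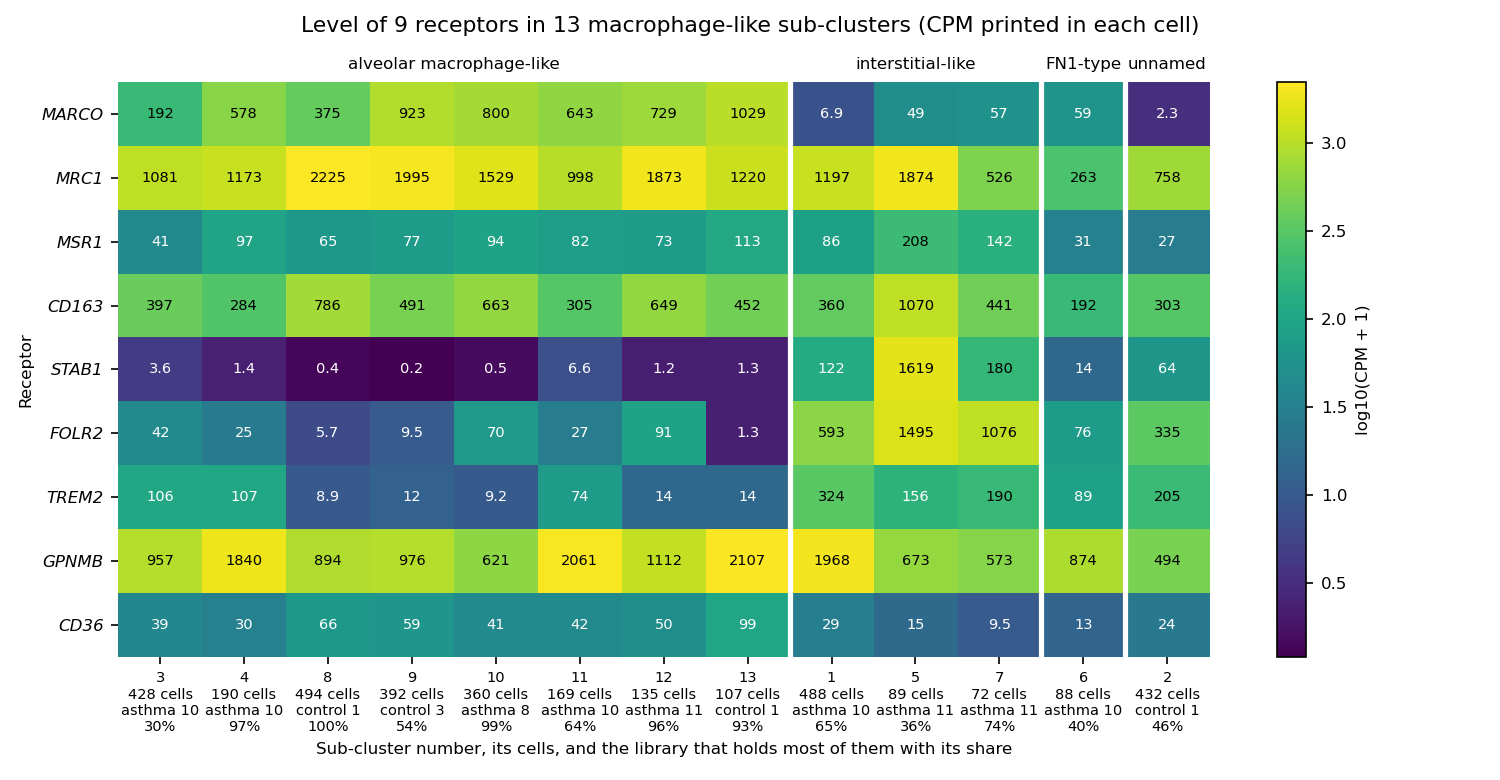
Heat map of receptor level in the 13 macrophage-like sub-clusters, with the CPM printed in each cell and each sub-cluster's number of cells and leading library on the axis. MARCO is high in the alveolar-like sub-clusters (1029 CPM in sub-cluster 13), and STAB1, FOLR2, CD163 and MSR1 all peak in sub-cluster 5.

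Single cells held the receptors in the same combinations. Among 3395 macrophage-like cells thinned to 2000 UMIs, 2.47% held no UMI of any of the 9, the most common number was 3 receptors (31.7% of cells) and the largest was 8, in 1 cell. Of MARCO-positive cells 5.98% also held FOLR2, against 27.9% of MARCO-negative cells, and 2.85% also held TREM2, against 23.6%. Only 7 cells held both MARCO and STAB1. Each of these MARCO pairs was below the product of its separate shares in all 6 libraries. Over the class as a whole STAB1, FOLR2 and TREM2 went together. FOLR2 was held by 74.6% of STAB1-positive cells against 16.5% of STAB1-negative ones. TREM2 was held by 35.8% of FOLR2-positive cells against 11.8% of FOLR2-negative ones, and by 33.6% of STAB1-positive against 15.5% of STAB1-negative cells. The 3 pairs among them exceeded the product in 6 of 6 libraries. These shares pool alveolar-like and interstitial-like cells. Among interstitial-like sub-clusters STAB1 and TREM2 did not rise together, at 122 and 324 CPM in sub-cluster 1, 1619 and 156 CPM in sub-cluster 5 and 180 and 190 CPM in sub-cluster 7. CD163 was held by 59.6% of MRC1-positive and 36.4% of MRC1-negative cells, above the product in 6 of 6 libraries. Cells of 1 monkey share their library, and these shares are descriptions.

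**Figure D4:**
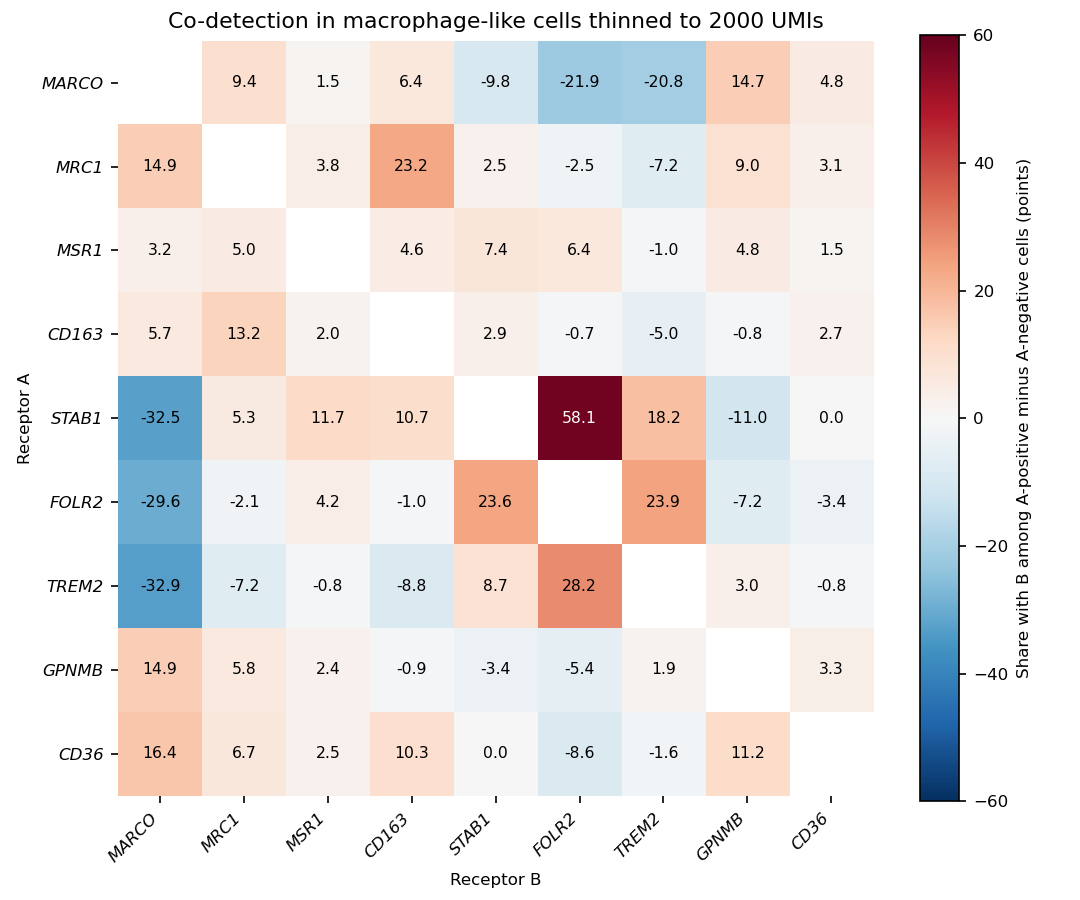
Co-detection in 3395 macrophage-like cells thinned to 2000 UMIs, with receptor A in rows and receptor B in columns. Each square gives the share of cells with B among A-positive cells minus that among A-negative cells, in points, blue below 0 and red above, and it is below 0 where MARCO meets STAB1, FOLR2 and TREM2 and above 0 for STAB1 with FOLR2 (74.6% against 16.5%).

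Over 37 sums of 1 sub-cluster in 1 library, the Pearson correlation of log2(CPM + 10) was -0.87 for MARCO with FOLR2, -0.81 for MARCO with TREM2 and -0.80 for MARCO with STAB1, and 0.91 for STAB1 with FOLR2, 0.75 for FOLR2 with TREM2 and 0.70 for MRC1 with CD163. Over 68 sums of 1 class in 1 library the MARCO and FOLR2 correlation was 0.92, as both genes were highest in macrophage-like cells. These sums share libraries and depth, and the correlations are given without a p. The genes most like each receptor over the sub-cluster sums differed between them. ARHGEF28 (0.93), MCEMP1 (0.92) and CHI3L1 (0.91) were closest to MARCO. MCEMP1 and CHI3L1 are themselves on the lists used to name alveolar-like and FN1-expressing macrophages. SLC9A9 (0.97), NISCH and ENPP2 (0.92 each) were closest to STAB1, CTDSPL (0.93), STAB1 and LTC4S (0.91 each) to FOLR2, and TMEM176B (0.93), TMEM176A and CD86 (0.91 each) to TREM2. APOE (0.87), the main apolipoprotein of macrophages, was closest to GPNMB, as it also was over classes (0.94). The closest genes to the other receptors reached 0.76 for MRC1 (ADAMTSL4), 0.79 for MSR1 (MS4A7), 0.81 for CD163 (TMEM33) and 0.80 for CD36 (CYB5R3). Over the class sums PPARG, the transcription factor of alveolar macrophage identity, was closest to MRC1 (0.96) and FOLR2 (0.94), C1QB to CD163 (0.93), TIMD4 to TREM2 (0.95), MCTP1 and PECAM1 to STAB1 (0.90 and 0.82) and ARHGEF28 to CD36 (0.84). PPARG, C1QB, APOE and PECAM1 are also on the lists used to name the classes.

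The asthma and control groups were then compared within each class, on UMIs summed per library and tested in edgeR (quasi-likelihood F-test), with p-values adjusted by Benjamini and Hochberg's method over all genes tested in the class. Below, adjusted p is edgeR's unless another tool is named. A gene was called at an adjusted p under 0.05 with an absolute log2 fold change over 0.25. In macrophage-like cells 0 of 10512 genes (0% of them) were called by edgeR, and 0 of the 9 receptors. DESeq2 called 38 genes (0.362%), again with no receptor among them. At an unadjusted p under 0.05 there were 586 genes (5.57%), among them 3 receptors, FOLR2, MRC1 and CD36.

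FOLR2 measured 88.2, 79.3 and 110.1 CPM in macrophage-like cells of the control libraries and 112, 219 and 194 CPM in those of the asthma libraries. All 3 asthma values lay above the controls, by a narrow margin in asthma replicate 8. The log2 fold change was 0.82 (SE 0.267, adjusted p = 0.845). CD36 measured 69.0, 42.4 and 59.4 CPM against 38.6, 25.3 and 41.2 CPM, with every asthma value below every control value. Its log2 fold change was -0.82 (SE 0.217, adjusted p = 0.773). MRC1 measured 1723, 1397 and 1996 CPM against 1472, 1075 and 1493 CPM, and the groups overlapped (log2 fold change -0.45, SE 0.169, adjusted p = 0.856). MSR1 was at 66.5, 72.1 and 65.9 CPM in the control group and 80.7, 82.5 and 78.0 CPM in the asthma group, without overlap, but its log2 fold change of 0.12 did not pass the test (SE 0.123, adjusted p = 0.918).

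Of all 10512 genes, 11.7% had every asthma library above every control library and 2.12% every one below. Among the 9 receptors these were FOLR2 and MSR1 (above) and CD36 (below). The other 5 receptors had log2 fold changes between -0.55 (MARCO) and 0.75 (TREM2), all with adjusted p of 0.896 or more. MARCO measured 407, 841 and 591 CPM in the control and 639, 311 and 424 CPM in the asthma libraries, so that the highest and the lowest of the 6 lay in different groups with wide overlap. STAB1 measured 22.04, 15.7 and 49.9 CPM against 23.9, 42.1 and 88.6 CPM, highest in asthma replicate 11 (log2 fold change 0.72, SE 0.544). CD163 and GPNMB followed the library more than the group. CD163 was low in control replicate 2 (286 CPM) and asthma replicate 10 (323 CPM) and between 584 and 630 CPM in the other libraries. GPNMB was lowest at 724 CPM in asthma replicate 8 and highest at 1636 CPM in asthma replicate 10. TREM2 in macrophage-like cells was high in 1 library, at 169 CPM in asthma replicate 10 against 49.9 and 84.7 CPM in asthma replicates 8 and 11 and 53.1 to 61.3 CPM in the control libraries. The median log2 fold change of the 9 was 0.04, and that of all genes tested 0.00.

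The macrophage-like class itself took the same mean share of kept cells in both groups, 13.8% ± 7.75 in control and 13.8% ± 4.32 in asthma libraries (exact two-sided permutation test over 20 assignments, p = 1.0, where the smallest p that can be reached is 0.1). Its makeup differed between libraries. Alveolar-like cells were 73.5%, 75.8% and 65.8% of macrophage-like cells in the control group and 82.8%, 50.4% and 51.0% in the asthma group (exact permutation p = 0.4). Asthma replicates 10 and 11, with the lowest alveolar-like shares, had the highest FOLR2 and TREM2 levels in macrophage-like cells. The part of this makeup in the level over the whole class was not tested. Marker sums of 3 other classes did not overlap between the groups in macrophage-like cells, granulocyte markers (1163 against 627 CPM, led by S100A9), mesothelial markers (8.12 against 46.0 CPM, led by ITLN1) and mast markers (5.75 against 16.2 CPM), and their part in the receptor values was not tested.

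Alveolar-like cells were therefore compared on their own, and again 0 of 10064 genes (0%) and 0 of 8 tested receptors were called by edgeR, with 513 genes (5.10%) at an unadjusted p under 0.05, among them FOLR2, TREM2, MRC1 and CD36. FOLR2 had the largest log2 fold change of the 8. It measured 14.3, 9.83 and 9.81 CPM in alveolar-like cells of the control libraries and 69.0, 17.4 and 81.2 CPM in those of the asthma libraries. All asthma values were higher, but asthma replicate 10 only slightly so, and the mean was 11.3 ± 2.57 against 55.9 ± 33.8 CPM (n = 3 each). The log2 fold change of 2.16 (SE 0.505) had an adjusted p of 0.869 by edgeR and of 0.00215 by DESeq2, so that the call rested on the tool. DESeq2 called 32 genes in this class (0.318%). Every asthma library lay above every control library in 9.74% of genes and below in 2.13%, and of the 8 receptors FOLR2 was the one without overlap.

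The higher FOLR2 of asthma alveolar-like cells lay largely in sub-clusters that belonged to 1 library each. It was 69.9 CPM in the cells of asthma replicate 8 in sub-cluster 10 and 91.2 CPM in those of asthma replicate 11 in sub-cluster 12, against 5.68 and 1.41 CPM in the cells of control replicate 1 in sub-clusters 8 and 13 and 9.03 and 9.28 CPM in those of control replicates 2 and 3 in sub-cluster 9. The cells of asthma replicate 10 held 21.6 and 11.7 CPM in sub-clusters 4 and 11, and the 22 cells of control replicate 1 in sub-cluster 11 held 92.9 CPM. In sub-cluster 3, which all 6 libraries filled, FOLR2 was 87.1, 7.08 and 20.1 CPM in the control libraries and 58.9, 16.2 and 54.5 CPM in the asthma libraries, and the groups overlapped. The summed level of 9 interstitial macrophage markers in alveolar-like cells, FOLR2 not among them, was 313, 273 and 279 CPM in the control group and 279, 461 and 311 CPM in the asthma group. All 9 markers were detected and LGMN was the most abundant of them, at 233 CPM. The summed erythroid markers, led by the globin gene HBB, were 782 CPM in these cells of control replicate 2 against at most 1.30 CPM in any other library. The summed plasma cell markers, led by IGKC, were 494, 2351 and 20.2 CPM in the control group and 21.96, 28.8 and 38.0 CPM in the asthma group, and the macrophage markers averaged 24136 and 29342 CPM without overlap. IGKC and HBB were also among the leading genes of sub-cluster 3. The part of these sums in the FOLR2 value was not tested.

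TREM2 in alveolar-like cells measured 23.4, 18.7 and 15.2 CPM in the control libraries and 22.1, 95.2 and 48.6 CPM in the asthma libraries. The groups overlapped, through asthma replicate 8. The log2 fold change was 1.46 (SE 0.512, adjusted p = 0.933) and was 0.74 without asthma replicate 10. CD36 measured 73.4, 47.8 and 67.2 CPM against 40.3, 26.3 and 52.5 CPM (log2 fold change -0.77, SE 0.249, adjusted p = 0.933). MRC1 had a log2 fold change of -0.48 (SE 0.188, adjusted p = 0.933), and MARCO of -0.38, MSR1 of 0.06, CD163 of -0.14 and GPNMB of 0.08, all with adjusted p of 0.963 or more. STAB1 was too low in these cells to be tested.

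The interstitial-like cells of the libraries came from different sub-clusters. Sub-cluster 1 gave 319 of them in asthma replicate 10, where sub-clusters 5 and 7 gave 27, but 18 against 85 in asthma replicate 11 and 49 against 9 in asthma replicate 8, and in the control libraries 30 against 25, 31 against 4 and 41 against 11. In these cells no gene of 5709 (0%) and none of 8 tested receptors was called by edgeR. There, 239 genes (4.19%) and no receptor had an unadjusted p under 0.05, and DESeq2 called 1 gene (0.0175%), not a receptor. FOLR2 had a log2 fold change of -0.41 (SE 0.211, adjusted p = 0.998), with the 95% interval from -0.82 to 0.01. The other log2 fold changes ran from -0.31 for TREM2 to 0.31 for MSR1, with MSR1 at 189.5 CPM in asthma replicate 11 against 60.03 to 101 CPM in the other libraries. No receptor was without overlap between the groups, where 5.90% of all genes had every asthma library above and 3.68% every one below. MARCO was not tested in these cells. Its 91 UMIs were spread unevenly, and asthma replicate 8 alone reached 67.7 CPM. Marker sums of 4 other lists did not overlap between the groups in interstitial-like cells, B (38.8 CPM in control against 13.8 CPM in asthma libraries), endothelial (175 against 219), mesothelial (8.95 against 44.5) and nonclassical monocyte (149.7 against 242). Their part and that of the sub-cluster makeup in the receptor values were not tested.

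**Figure D5:**
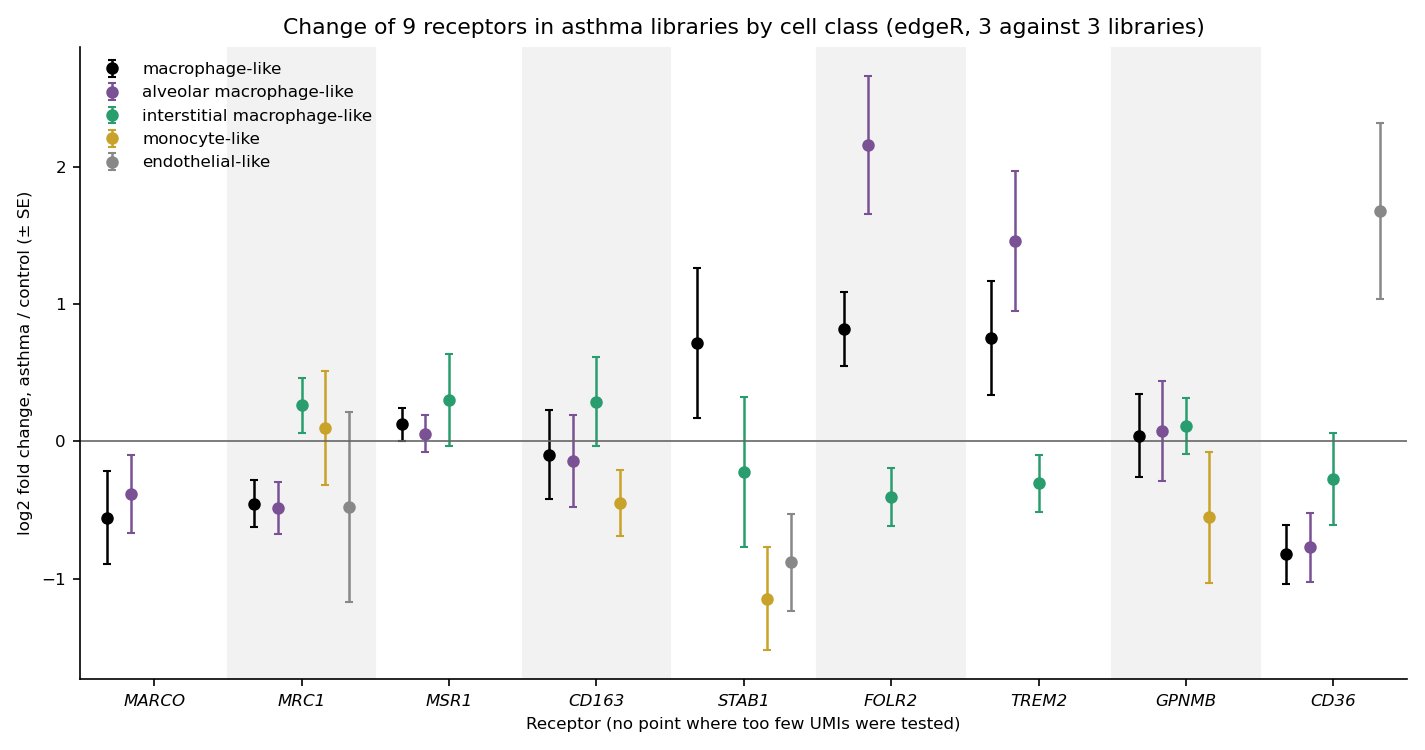
log2 fold change of each receptor between asthma and control libraries by cell class, with the standard error derived from the edgeR test (3 against 3 libraries). No point passed the adjusted threshold, and FOLR2 in alveolar-like cells stands highest of the macrophage values at 2.16 ± 0.505.

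The difference between the asthma effect in alveolar-like and in interstitial-like cells was tested directly, in a single edgeR model of both subtypes with the monkey as a block. It called 3 of 10312 genes (0.0291%), and no receptor, and it was not run with sub-cluster 1 left out. FOLR2 came nearest, with a difference of 2.38 on the log2 scale (SE 0.381, adjusted p = 0.0718) in this joint model. The separate fits of the subtypes, with their own scaling and spread, gave log2 fold changes of 2.16 and -0.41. DESeq2 called 4 genes (0.0388%) and gave FOLR2 a difference of 2.39 with an adjusted p of 7.76e-04. Without asthma replicate 8 or asthma replicate 10 edgeR called it too (adjusted p = 0.0342 and 2.57e-05), and without any of the other 4 libraries it did not (0.138 to 0.424). STAB1 had a difference of 2.39 (SE 0.512, adjusted p = 0.445), resting on the 73 UMIs of alveolar-like cells. TREM2 (1.57), MRC1 (-0.75) and MARCO (-3.44) had an unadjusted p under 0.05, as did 5.22% of all genes, and adjusted p of 0.686 to 0.885.

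In monocyte-like cells edgeR called 3 of 7418 genes (0.0404%) and 0 of the 4 receptors tested. DESeq2 called 15 genes (0.202%), and 561 genes (7.56%) had an unadjusted p under 0.05 in edgeR, STAB1 among them. STAB1 measured 10.8, 14.8 and 22.5 CPM in the control libraries and 4.57, 6.57 and 9.22 CPM in the asthma libraries. Every asthma value was below every control value, as in 4.17% of all genes (9.34% had every one above), and the log2 fold change was -1.15 (SE 0.375, adjusted p = 0.590). CD163 had a log2 fold change of -0.45 (SE 0.239, adjusted p = 0.728), GPNMB of -0.55 and MRC1 of 0.10. The makeup of the class differed too, since asthma replicate 11 held 457 nonclassical and 333 classical cells against 27 and 209 in control replicate 3. In classical monocyte-like cells alone STAB1 was 15.3, 21.96 and 25.5 CPM in the control group and 7.30, 9.04 and 11.8 CPM in the asthma group, a subtype that was not tested on its own. The summed monocyte markers of monocyte-like cells were 16369 CPM in the control and 11798 CPM in the asthma group, and the macrophage markers 1133 and 1814 CPM. Those of the FN1-expressing macrophage type, led here by VCAN, were 3039.9 and 2239.6 CPM, and the mesothelial markers 13.8 and 57.7 CPM. None of these 4 sums overlapped. Their part in the STAB1 value was not tested.

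Among endothelial-like, macrophage-like and monocyte-like cells, the classes compared, edgeR called the most genes in endothelial-like cells, 460 of 7839 (5.87%), and 0 of the 3 receptors tested. DESeq2 called 485 there (6.19%). The edgeR count was between 65 (without asthma replicate 10) and 403 (without control replicate 2) when 1 library was left out. STAB1 measured 36.2, 102 and 122 CPM in the control libraries and 64.4, 51.8 and 52.6 CPM in the asthma libraries, and the groups overlapped through control replicate 1 (log2 fold change -0.88, SE 0.351, adjusted p = 0.171). Without that library the value was -1.22, with an adjusted p of 0.0428. CD36, which endothelium uses for fatty acid uptake, had a log2 fold change of 1.68 (SE 0.643, adjusted p = 0.155), and of 3.34 without control replicate 1 (adjusted p = 0.0331). In this class 22.6% of all genes had an unadjusted p under 0.05, and 23.1% had every asthma library above every control library and 7.4% every one below. The groups also drew on different endothelial-like clusters. The control libraries held 45, 37 and 101 endothelial-like cells against 259, 239 and 347 in the asthma libraries. A cluster led by CPE, MGP and VWF held 125 of the 183 control cells and 160 of the 845 asthma cells, while clusters led by RAMP3, FCN3 and RGS5 and by ACE, HPGD and FCN3 held 31 and 27 control cells against 365 and 320 asthma cells. CD36 was at 141 CPM in the RAMP3 cluster, 14.8 CPM in the ACE cluster and 3.88 CPM in the CPE cluster, and STAB1 at 76.8, 15.8 and 93.2 CPM. The CPE cluster was the only one of these with at least 10 cells in every library, and it was chosen after seeing the data. Within it edgeR called 0 of 3452 genes, with 216 at an unadjusted p under 0.05. STAB1 measured 34.6, 56.0 and 116 CPM there in the control libraries and 115, 89.0 and 73.8 CPM in the asthma libraries, and its log2 fold change of 0.24 (SE 0.401, adjusted p = 0.9501) had the other sign. CD36 was too low in the CPE cluster to be tested. In the RAMP3 cluster STAB1 was 161 CPM in the 15 cells of control replicate 3 and 45.1, 75.9 and 63.6 CPM in the asthma libraries. In the ACE cluster it was 37.7 CPM in the 13 cells of control replicate 2 and 12.7, 21.3 and 8.20 CPM in the asthma libraries. The other control libraries had under 10 cells in these clusters, and neither cluster was tested. The summed endothelial markers were 14922 CPM in the control and 23411 CPM in the asthma group, without overlap. The part of the marker sums in the receptor values was not tested.

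Over all kept cells together, a sum that mixes cell makeup with level, no receptor was called among the 12 genes of 14306 (0.0839%) that edgeR called, and the adjusted p of the 9 receptors was 0.507 or more. DESeq2 called 647 genes there (4.53%).

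The share of macrophage-like cells with a UMI, at 2000 UMIs a cell, gave a second view of the same libraries. FOLR2 was found in 16.3%, 11.1% and 16.5% of the cells of the control libraries and in 18.7%, 26.2% and 34.4% of those of the asthma libraries. For MSR1 the mean share was 10.3% ± 1.51 against 14.4% ± 1.05, and for CD36 8.52% ± 2.24 against 4.95% ± 1.21. Of the 9 receptors compared in this way, these 3 had an exact two-sided permutation p of 0.1, the smallest that 3 against 3 libraries can reach, and the other 6 had p of 0.4 to 0.6. The share of all genes that reach it on this measure was not computed. All 3 differences depended on the depth. FOLR2 was 11.8 points higher in the asthma group at 2000 UMIs a cell, 4.86 points at 1000 UMIs (exact permutation p = 0.2) and 23.7 points at full depth. With 1 library left out, the FOLR2 difference at 2000 UMIs ran from 7.78 points (without asthma replicate 11) to 15.6 points (without asthma replicate 8). CD36 differed by -3.57 points at 2000 UMIs, -2.10 at 1000 and -17.5 at full depth. MSR1 differed by 4.02 points at 2000 UMIs, 1.11 at 1000 (exact permutation p = 0.2) and -0.938 at full depth (exact permutation p = 0.9). With other quality limits the exact permutation p was 0.2 for FOLR2 with 13 mitochondrial genes, for CD36 without the cells of highest doublet score and with a 10% mitochondrial maximum, and for all 3 with no maximum number of genes, and it was 0.4 for MSR1 with the 10% maximum. At full depth 44.8% of macrophage-like cells held FOLR2, 54.6% MSR1 and 43.8% CD36. Thinning left out 10 control and 39 asthma cells of under 2000 UMIs.

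Other genes of the same pathways were counted in macrophage-like cells, where edgeR called 0 of all 10512 genes (0%). None of the 21 tested genes of other scavenger and uptake receptors was called, nor of 23 genes of lipid handling and lysosome, 9 of signalling and shedding partners such as TYROBP and SYK, 17 macrophage transcription factors, 7 of haem and iron handling, or 10 of macrophage growth and polarizing signals. Their median log2 fold changes were -0.05, 0.09, -0.00, -0.11, 0.06 and 0.36, against 0.00 over all genes tested. At an unadjusted p under 0.05, where 5.57% of all genes lay, the asthma group was higher for 2 of the 21 other scavenger receptors, lower for 2 of the 23 lipid genes, and higher for 3 and lower for 1 of the 10 growth and polarizing signals, which include receptors for CSF1, interleukins and TGF-beta. None of the partners, transcription factors or haem and iron genes reached it.

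Several of these genes divided between the subtypes as the receptors did. CSF1R, the receptor for macrophage colony-stimulating factor, stood at 227 CPM in alveolar-like and 1057 CPM in interstitial-like cells, and OLR1, a receptor for oxidised low-density lipoprotein, at 637 and 185 CPM. PPARG, itself a marker used to name alveolar-like cells, stood at 352 and 73.1 CPM. CD68 (993 and 831 CPM), CD14 (744 and 736 CPM) and APOE (14722 and 19172 CPM) were found in both subtypes, and TYROBP, the TREM2 adaptor, measured 1515 and 2331 CPM, with 1826 CPM in monocyte-like cells.

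The listed genes that passed the test all did so in endothelial-like cells, where 5.87% of all genes were called and where the groups drew on different clusters. They were 1 of 9 tested genes of other scavenger receptors, 2 of 17 lipid genes, 3 of 6 haem and iron genes, 1 of 7 growth and polarizing signals, and 0 of 8 partners and of 5 transcription factors. These calls are on the sum over the class, and none of them was made within the CPE cluster. LPL, the lipoprotein lipase of the vessel wall, averaged 42.7 CPM in the control and 271 CPM in the asthma libraries over the class (log2 fold change 2.34, adjusted p = 0.0340), with 503 CPM in asthma replicate 11 and 178 and 132 CPM in the other asthma libraries. Its level was 566 CPM in the RAMP3 cluster, 85.3 CPM in the ACE cluster and 9.43 CPM in the CPE cluster. CSF2RB, a cytokine receptor chain, was at 11.2 and 44.1 CPM (1.66, adjusted p = 0.0282) and CD14 at 28.7 and 79.1 CPM (1.31, adjusted p = 0.0282). CSF2RB was highest in the ACE cluster, at 65.9 CPM, and CD14 lowest in the CPE cluster, at 38.8 CPM.

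Lower over the class in the asthma group were CD9, a tetraspanin, at 970.2 and 418 CPM (-1.41, adjusted p = 0.0110), FTH1, the ferritin heavy chain (3122 and 1878 CPM, adjusted p = 0.0211), and the biliverdin reductases BLVRA (66.3 and 35.9 CPM, adjusted p = 0.0239) and BLVRB (56.3 and 33.7 CPM, adjusted p = 0.0488). CD9 stood at 735 CPM in the CPE cluster, 707 CPM in the RAMP3 cluster and 107 CPM in the ACE cluster. FTH1 stood at 2983, 1975 and 1276 CPM in the same order. Within the RAMP3 cluster CD9 was 1462 CPM in the 15 cells of control replicate 3 and 663, 459 and 462 CPM in the asthma libraries. Within the ACE cluster it was 0 CPM in the 13 cells of control replicate 2 and 88.6, 93.8 and 172 CPM in the asthma libraries. The other control libraries had under 10 cells in these 2 clusters. Within the CPE cluster the log2 fold change was -0.35 for CD9 (SE 0.232, adjusted p = 0.802), -0.40 for FTH1 (SE 0.185, adjusted p = 0.778) and -0.80 for BLVRB (SE 0.327, adjusted p = 0.766), and LPL, CSF2RB, CD14 and BLVRA were too low to be tested. CD9 was called in the 14 other alternative settings, LPL and FTH1 in 10, BLVRA in 8, CD14 in 7, and CSF2RB and BLVRB in 6. Apart from the endothelial markers (14922 CPM in the control and 23411 CPM in the asthma group), 3 marker sums did not overlap between the groups in this class. The markers of the FN1-expressing macrophage type, led by TIMP1, were 4110.1 and 1495 CPM, the mast markers, led by GATA2, 320.2 and 545 CPM, and the classical monocyte markers, led by CD93, 269 and 471 CPM. Their part in the listed genes' values was not tested.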

How the data were processed

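Single cells of lung were measured with the 10x 3′ kit, 1 library per monkey. The deposited counts are whole UMI counts per gene and barcode, made by the authors with Cell Ranger (version 2.1.1 per the submitters' processing notes; the file headers and the paper's methods give other versions) on the macFas6 genome, with no normalization. Barcodes were kept within the study's limits on genes (500 to 5000), UMIs (500) and mitochondrial share (25%, over 37 genes). Each cell was brought to 10000 counts on a log scale, and 2000 variable genes without the 9 receptors, 10 principal components and 20 neighbours gave Leiden clusters at resolution 0.8 and sub-clusters at 0.5 (Python 3.11.15, scanpy 1.11.5, leidenalg 0.10.2). Sub-clusters were named from marker lists, and 1229 cells with markers of several classes and 501 unnamed cells were left out. The members, marker lists and gene lists were chosen with earlier results of these data known, and the naming thresholds were set after the data were seen. Scrublet marked 10 of 24235 kept cells, too few to have worked, so the 793 cells of highest score were left out as an alternative.

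UMIs were summed per library and class with at least 10 cells. Groups came from the disease label. edgeR 4.0.16 (TMM, filterByExpr, quasi-likelihood test, limma 3.58.1, R 4.3.3) was fitted within a class on 3 against 3 libraries without covariates. The difference between subtypes was fitted on both subtypes together with the monkey as a block. In each fit p-values were adjusted over all genes tested. The test was checked on simulated data. The standard error of a log2 fold change was derived from the edgeR test, as its absolute value over the square root of F. The 95% interval applies a normal quantile to that error. It is therefore narrower than an interval matched to the quasi-likelihood F-test would be. Alternatives were DESeq2 1.42.0, no filter, other quality limits, a finer clustering, the receptors kept in the clustering, thinning to 1000 UMIs or none, and each library left out. Named genes were the 9 receptors, listed genes that were called, the 3 most abundant genes of each list, and the 3 genes most correlated with each receptor. Sequences were not used here.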

Additional observations from a re-analysis of the deposited data

Results flagged for a closer look

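Barcodes with 5000 genes or more, which the quality limits remove, held 92417 UMIs of the 9 receptors, 23.9% of all such UMIs in the files, in 696 barcodes with a median of 39375.5 UMIs. This is signal in data outside the comparisons above. The share was 37.8% for MARCO, 26.0% for MSR1, 24.7% for GPNMB, 23.4% for CD36, 22.1% for MRC1 and 18.5% for CD163, and it was 7.56% for FOLR2, 5.83% for TREM2 and 4.08% for STAB1. The libraries contributed 109, 111 and 57 such barcodes in the control group and 217, 150 and 52 in the asthma group. When no maximum was set, 342 of them (49.1%) clustered as alveolar-like and 5 as interstitial-like, 135 as mesothelial-like and 124 in groups with markers of several classes. Whether they are large cells or doublets was not tested.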

How the results depend on the processing

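No paired analysis was possible because the control and asthma libraries came from different monkeys. Without the filter on low counts, edgeR called 1 gene in macrophage-like, 1 in alveolar-like, 55 in interstitial-like, 212 in monocyte-like and 997 in endothelial-like cells, 45 in all kept cells and 93 for the difference between subtypes. DESeq2 called 38, 32, 1 and 15 genes in the first 4 of these and 647 in all kept cells. The count in monocyte-like cells was 0 with a 10% mitochondrial maximum, at resolution 1.6, with the receptors kept in the clustering and with no maximum number of genes, and 1 with 13 mitochondrial genes. In interstitial-like cells it was 2 at resolution 1.6 and 1 with the receptors kept, with 13 mitochondrial genes or with no maximum. In all kept cells it was 24 with 13 mitochondrial genes and 7 with no maximum. The count for the difference between subtypes was 0 at resolution 1.6, with the receptors kept and with 13 mitochondrial genes. The settings with 13 mitochondrial genes, with no maximum, with mixed sub-clusters kept, with the sub-clusters of 1 cluster and with sub-cluster 1 left out were chosen after seeing the data. With 1 library left out the counts ran from 0 to 1 in macrophage-like, 0 to 2 in alveolar-like, 0 to 1 in interstitial-like, 0 to 1 in monocyte-like and 65 to 403 in endothelial-like cells, from 0 to 11 in all kept cells and from 0 to 16 for the difference.

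Several receptor changes, none of them called, took either sign. In all kept cells MSR1 was at -0.010 and GPNMB at -0.076 with no maximum. In endothelial-like cells MRC1 was at 0.33 without the cells of highest doublet score, and in interstitial-like cells STAB1 was at 0.47 with the receptors kept, 0.061 with 13 mitochondrial genes and 0.065 with no maximum. GPNMB in monocyte-like cells was at 0.43, 0.13 and 1.47 with a 10% mitochondrial maximum, without those doublet scores and with no maximum. With 1 library left out, the log2 changes in all kept cells ran from -0.50 to 0.38 for CD163, -0.94 to 0.036 for CD36, -0.69 to 0.51 for GPNMB, -0.21 to 0.38 for MSR1 and -0.35 to 1.13 for TREM2, in macrophage-like cells from -0.36 to 0.13 for CD163 and -0.31 to 0.31 for GPNMB, and in alveolar-like cells from -0.40 to 0.10 and -0.28 to 0.40 for the same genes. In interstitial-like cells they ran from -0.13 to 0.50 for CD163, -0.44 to 0.017 for CD36, -0.030 to 0.27 for GPNMB, -0.12 to 0.59 for MSR1 and -1.06 to 0.23 for STAB1, in monocyte-like cells from -1.29 to 0.069 for GPNMB and -0.28 to 0.45 for MRC1, and in endothelial-like cells from -1.29 to 0.12 for MRC1. The differences between subtypes ran from -0.50 to 0.41 for GPNMB and -0.50 to 0.23 for MSR1. None of these was called. The difference in macrophage-like share, 0.0155 points, was -0.0864, -0.0987, -0.143 and -0.322 points with a 10% maximum, at resolution 1.6, with 13 mitochondrial genes and with no maximum, and -2.27 to 4.49 points with 1 library left out. Without thinning the share of cells with a UMI differed by -0.938 points for MSR1 and -1.47 for CD163, and with 1 library left out by -2.44 to 9.07 points for CD163 and -1.15 to 4.19 for STAB1.

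With sub-cluster 1 left out of the interstitial-like cells, the log2 ratio of alveolar-like to interstitial-like mean levels changed sign for CD163 (-0.74) and GPNMB (1.10) and kept it for the other 7 receptors. It moved by more than the SD over libraries for MARCO (7.96), STAB1 (-9.14), TREM2 (-1.92), MSR1 (-1.23) and CD36 (1.90). This setting also lost control replicate 2 and asthma replicate 8, so these moves, and the change of sign for CD163, cannot be put down to sub-cluster 1 alone. For GPNMB, each of the 4 libraries that remained was higher in interstitial-like cells with sub-cluster 1 and lower without it. The MARCO ratio was 211 without asthma replicate 8 and with sub-cluster 1 kept, against 48.2 with all 6 libraries.

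Some receptors were called only under an alternative. FOLR2 in alveolar-like cells was called by DESeq2 alone, with log2 changes of 1.78 to 2.65 in every setting, and its difference between subtypes without the filter, by DESeq2, without the doublet scores (adjusted p = 0.0290), with no maximum (0.0167) and without asthma replicate 8 or 10. The differences of STAB1 and TREM2 were called without the filter (2.38 and 1.56) and without asthma replicate 8 (2.92 and 2.27), and those of MRC1 (-0.77) and MARCO (-3.45) without the filter. STAB1 in endothelial-like cells was called without control replicate 1 (-1.22). Within the endothelial-like cluster led by CPE, also chosen after seeing the data, 0 genes were called and STAB1 was at 0.24. CD36 in endothelial-like cells was called without the filter (1.71), with a 10% maximum (2.25) and without control replicate 1. Without the filter, MARCO was called in interstitial-like (3.46) and monocyte-like cells (-2.11). The cause of these changes was not tested.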
